A study of Mus musculus with 15 samples.

Results

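The 10 mature miRNAs described here come from hairpins of the miR-322, miR-503 and miR-351 cluster on mouse chromosome X. They are mmu-miR-322-5p, mmu-miR-322-3p, mmu-miR-503-5p, mmu-miR-503-3p, mmu-miR-351-5p, mmu-miR-351-3p, mmu-miR-542-3p, mmu-miR-542-5p, mmu-miR-450a-5p and mmu-miR-450b-5p, written below without the species prefix. They were chosen by name, and all 10 were found among the 1558 mature names counted in the series. The series sequenced small RNA from a commercial panel of mouse total RNA, with 1 library for each of 15 tissues or stages. The libraries were whole embryos of 11, 15 and 17 days, 3 nervous organs (brain, eye, spinal cord), and 9 other organs. The 9 were heart, kidney, liver, lung, salivary gland, smooth muscle, spleen, stomach and testis. No strain, genotype, sex, treatment, age of the organ donors or number of animals is stated in the labels, and the title and source field of the 17-day embryo disagree on its day. The title was used.

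A miRNA hairpin is cut into a duplex of a 5p and a 3p strand, of which usually 1 is kept in the silencing complex. Bases 2 to 8 of the kept strand, the seed, pair with target messages, so that miRNAs with the same seed can share targets. miR-322 and miR-503 belong to the extended miR-15/16 family, which is known for repressing cyclins and other cell cycle genes, and both are known to be induced when myoblasts leave the cell cycle. miR-351-5p carries the seed of miR-125, a family known from neural and blood cell differentiation. The title of the series concerns the choice between hairpin arms, and the comparisons below ask how the levels and arm shares of the cluster differed between embryos and organs.

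The mature strands are shown because the results turn on which of them share a seed. The seed is in capitals, each strand is written from its 5′ end, and 2 related strands from other loci are added for comparison. The sequences are those of RefSeq on build GRCm38.p6.
miR-322-5p: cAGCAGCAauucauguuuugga
miR-503-5p: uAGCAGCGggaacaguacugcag
miR-16-5p, not in the cluster: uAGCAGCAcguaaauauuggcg
miR-351-5p: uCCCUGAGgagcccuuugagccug
miR-125b-5p, not in the cluster: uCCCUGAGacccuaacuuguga
miR-450a-5p: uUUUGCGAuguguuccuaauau
miR-450b-5p: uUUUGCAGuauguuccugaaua
miR-542-3p: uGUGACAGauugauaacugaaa
miR-542-5p: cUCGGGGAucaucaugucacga
miR-322-3p: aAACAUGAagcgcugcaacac
miR-503-3p: gAGUAUUGuuuccacugccugg
miR-351-3p: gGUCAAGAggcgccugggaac

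The seed of miR-322-5p is that of miR-15a, miR-15b, miR-16, miR-195a and miR-497a, all 5p strands. The seed of miR-503-5p differs from it by A8G, counted from the 5′ end of miR-322-5p. miR-351-5p shares its seed with miR-125a-5p and miR-125b-5p. miR-542-5p shares its seed with miR-6966-5p, which had only 3 reads over the 15 libraries. miR-450a-5p and miR-450b-5p are identical at 15 of 22 positions, but their seeds differ by G7A and A8G. No member shared more than 11 consecutive bases with any other mature name, so no other name holds the whole strand of a member. A closer match exists between 2 strands of the cluster outside the 10, miR-450b-3p and miR-450a-1-3p, which share an 18-base stretch and differ at 2 positions, and whose counts are uncertain.

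The cluster holds 7 hairpins on the minus strand of chromosome X over 6353 bases of GRCm38. In the order of transcription they are Mir322 (chrX:53054255-53054349), Mir503 (chrX:53053984-53054054), Mir351 (chrX:53053255-53053353), Mir542 (chrX:53049403-53049487), Mir450-2 (chrX:53048299-53048367), Mir450-1 (chrX:53048154-53048244) and Mir450b (chrX:53047997-53048078). The first 3 lie within 1095 bases and the last 4 within 1491 bases, with 3767 bases between the groups. miR-450a-5p is made from both Mir450-1 and Mir450-2, which cannot be told apart in its counts. In the GENCODE annotation no hairpin overlaps another gene. The long noncoding RNA gene Gm28730 lies between Mir351 and Mir542 on the same strand, and the next gene upstream, the noncoding C430049B03Rik, lies on the same strand and ends 696 bases before Mir322.

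The smallest library, testis, held 148052 reads, stomach came next with 922137, and brain was the largest with 3161463. Levels are given as CPM, counts per 1000000 reads. A count of 3 reads stood for 20.3 CPM in testis and 0.95 in brain before scaling, so testis values are the least precise. Counts are of whole strands of 21 to 24 bases and were not scaled by length, and capture can still differ between sequences. Unless stated otherwise CPM was scaled by TMM factors, which assume that most miRNAs do not differ between libraries. The factors were 1.92 to 2.25 in the embryos and 0.449 to 1.77 in the organs, and they matter here. With total-count scaling in place of TMM, the median log2 fold change of all 693 tested names between embryos and the 9 other organs moved from 0.10 to 1.38. The split of calls moved from 187 higher and 119 lower to 287 higher and 42 lower. Between embryos and nervous organs the median moved from -0.04 to 0.85, with a split of 81 to 99 against 115 to 43. Between nervous and other organs it moved from -0.21 to 0.26. Marker miRNAs of each organ were present in the library of that name, where their summed level ranked 1 to 3 among the 15, with no marker at 0. Several lists peaked in another library. Kidney markers had 330019 CPM in smooth muscle and 40906.5 in kidney. Smooth muscle markers had 313499 in stomach and 270609 in smooth muscle, and lung markers 101790 in heart and 99552 in lung. Smooth muscle also held 40075 CPM of the salivary gland and stomach markers. The ranks therefore do not show that a library held only its named tissue. With 1 library per tissue, the error behind each p-value is the variation among the tissues, or among the stages, that make up a class, and animals were not compared. Stages of an embryo are alike in ways that organs are not, so these p-values may be too small.

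Together the 10 miRNAs took 2.04% of the reads of the 11-day embryo, 2.29% of the 15-day and 2.47% of the 17-day embryo. In every organ they took less, with 0.601% in testis, 0.406% in lung, 0.353% in kidney and 0.246% in heart at the top, and 0.0288% in brain and 0.0332% in spinal cord at the bottom. On the TMM scale the summed level was 9082, 11902 and 11647 CPM in the embryos of 11, 15 and 17 days. The highest organs were lung with 5796 and heart with 5478 CPM, and the lowest were brain with 255 and spinal cord with 245 CPM. The embryo libraries therefore lay above all 12 organs on both scales. In RNA of whole tissues, fewer cells that express a miRNA and less of it per cell cannot be told apart.

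miR-503-5p, the leading strand of its hairpin, was the most abundant member in embryos. Its level was 3116 CPM in the 11-day, 4648 in the 15-day and 3853 in the 17-day embryo. Among the 9 other organs it ranged from 39.6 CPM in smooth muscle to 648 in lung, with testis at 399, heart at 367, spleen at 268, kidney at 193, liver at 163, salivary gland at 109 and stomach at 59.0. Brain had 19.6, eye 98.0 and spinal cord 10.3 CPM. The lowest embryo thus stood well above the highest organ, and no organ came near the embryos. By the quasi-likelihood test of edgeR miR-503-5p was higher in embryos than in the other organs by 3.96 ± 0.72 on the log2 scale (SE, adjusted p = 0.00033), the largest fold change among the 10.

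miR-322-5p, which carries the miR-15/16 seed, did not follow this pattern. It had 2549, 2342 and 2466 CPM in the 11-, 15- and 17-day embryos, but 3482 in heart, 2900 in lung and 2450 in testis. Kidney had 1951, spleen 1343, liver 943, salivary gland 638, smooth muscle 486 and stomach 248 CPM. Heart and lung thus lay above all 3 embryos, and the counting interval of testis overlapped those of all 3 embryos. The log2 fold change to the other organs was 0.61 ± 0.68 (SE, edgeR, adjusted p = 0.48). This result depends on the scaling. On the scale of all reads the embryos had 4498 to 5716 CPM and all 12 organs lay below them, the highest being testis with 3776, and the total-count fit gave a log2 fold change of 1.89 (edgeR, adjusted p = 0.041), against a median of 1.38 over all names.

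**Figure D1:**
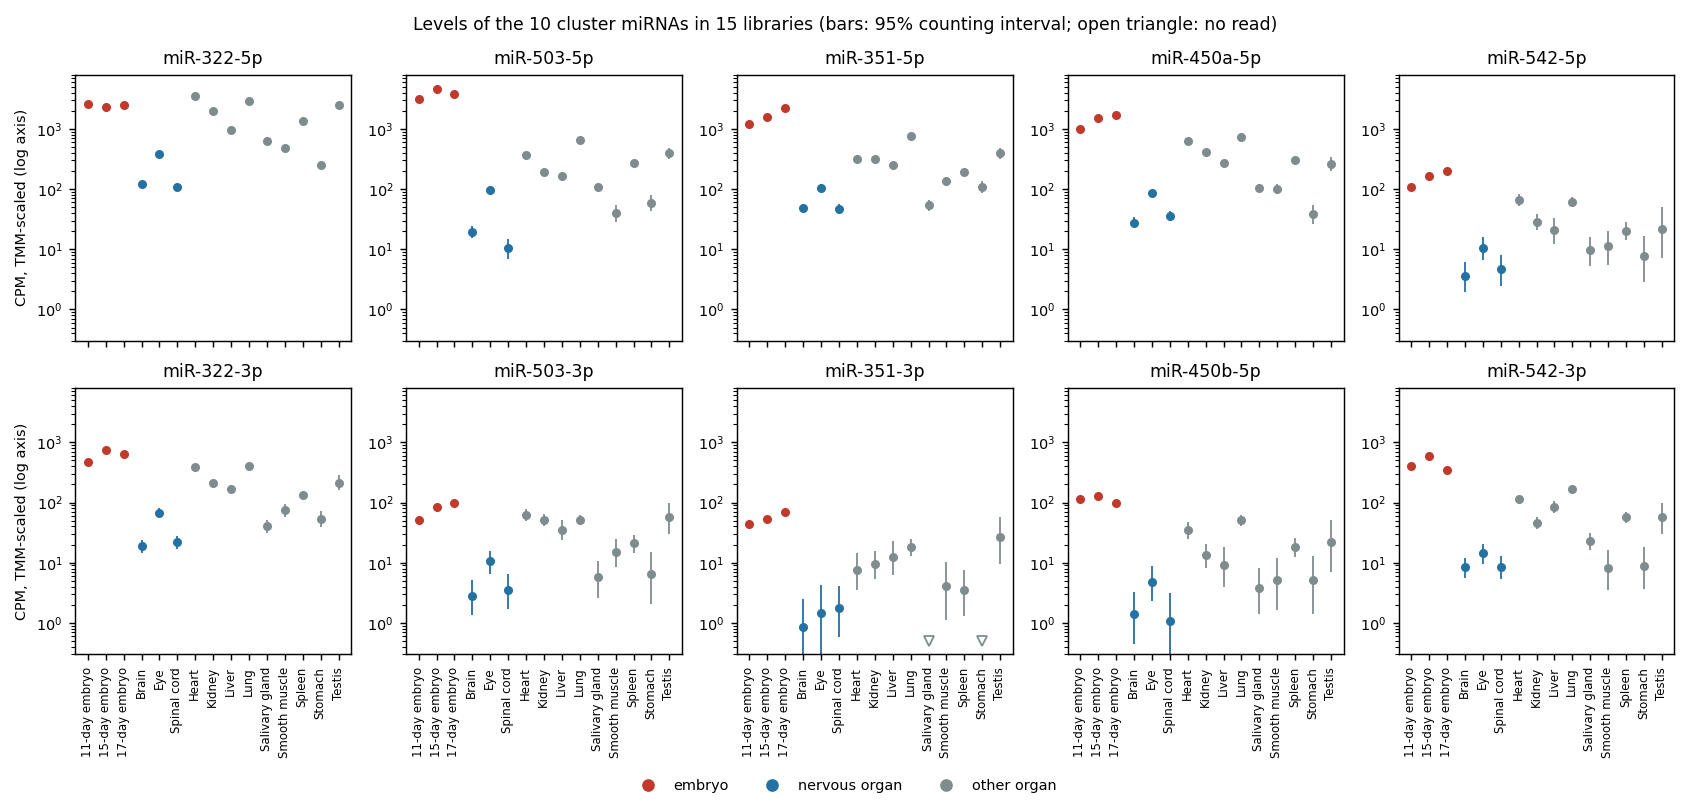
Levels of the 10 cluster miRNAs in each of the 15 libraries, as TMM-scaled CPM on a log axis, 1 panel per miRNA; points are single libraries coloured by class, bars are 95% Poisson counting intervals, and open triangles mark libraries with no read. The 3 embryo libraries lie above all organs in 8 panels, but miR-322-5p in heart and lung lies above the embryos.

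miR-351-5p, with the miR-125 seed, had 1218, 1598 and 2184 CPM in the 11-, 15- and 17-day embryos. In the other organs it ranged from 53.5 CPM in salivary gland to 767 in lung, with a median of 251. All embryos lay above all organs, and the log2 fold change to the other organs was 2.56 ± 0.58 (SE, edgeR, adjusted p = 0.0021). miR-450a-5p, from the 2 Mir450 hairpins, had 1009, 1539 and 1677 CPM in the embryos and 38.5 CPM in stomach to 735 in lung, with a median of 268 in the other organs. Its groups did not overlap either, with a log2 fold change of 2.15 ± 0.66 (SE, edgeR, adjusted p = 0.014). The call on miR-450a-5p failed when either of the older embryos was left out, with an adjusted p of 0.074 for the 15-day and of 0.095 for the 17-day embryo.

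miR-542-3p is the leading strand of the Mir542 hairpin, the reverse of the 5p-led hairpins upstream. Its level was 410, 585 and 349 CPM in the 11-, 15- and 17-day embryos against 8.12 in smooth muscle to 167 in lung, with no overlap. The log2 fold change to the other organs was 2.83 ± 0.67 (SE, edgeR, adjusted p = 0.0027). Its partner miR-542-5p had 107, 168 and 199 CPM in the embryos and at most 66.2 in the other organs, in heart. miR-450b-5p had 113, 129 and 98.1 CPM in the embryos and at most 50.4, in lung. Neither overlapped with any organ, and their log2 fold changes were 2.51 (adjusted p = 0.0026) and 2.65 (adjusted p = 0.0042) by edgeR.

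The remaining 3 members are the minor strands of the upstream hairpins. miR-322-3p had 466, 755 and 651 CPM in the embryos and at most 397 in the organs, in lung. Its log2 fold change of 1.73 ± 0.63 (SE, edgeR, adjusted p = 0.035) was the least secure of the calls, since 8 of 15 leave-outs of single libraries lost it (adjusted p 0.019 to 0.17 over all 15). Those 8 were brain, spinal cord, liver, smooth muscle, spleen and each embryo. It also failed against all 12 organs (adjusted p = 0.058) and with low counts kept in (0.056). miR-351-3p had 43.8, 52.4 and 69.1 CPM in the embryos and at most 26.3 in the organs, in testis, there from 6 reads. No read of it was found in salivary gland or stomach, the only libraries in which a member was missing. Its log2 fold change was 2.68 ± 0.86 (SE, edgeR, adjusted p = 0.018), and the call was lost when any of the 3 embryos was left out (adjusted p 0.054 to 0.11). miR-503-3p had 52.1, 84.6 and 99.7 CPM in the embryos. Heart with 62.9 and testis with 57.0 CPM, the latter from 13 reads, lay inside that range, and kidney with 52.1 lay at its lower end. Its log2 fold change of 1.22 ± 0.66 did not pass (SE, edgeR, adjusted p = 0.14), and on the total-count scale it did (2.50, adjusted p = 0.011).

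In all, 8 of the 10 members were higher in embryos than in the other organs and none was lower by edgeR, where 27% of the 693 tested names were called higher. Their median log2 fold change was 2.54, against 0.10 over all names. On the total-count scale all 10 passed, where 41.4% of names were called higher. The calls on 5 of them, miR-503-5p, miR-351-5p, miR-542-3p, miR-542-5p and miR-450b-5p, held whichever single library was left out. All 3 embryos lay above all 12 organs for 8 of the 10 members, the exceptions being miR-322-5p and miR-503-3p, where 11.5% of tested names did so. With unscaled CPM this held for all 10, where 20.8% of tested names did so. Whole embryos also differed from the 9 organs in other tissue markers. The summed level of 3 brain and spinal cord markers was 17505 to 36379 CPM in embryos and 925 to 2697 in the other organs. That of the skeletal muscle marker miR-206-3p was 499 to 4887 CPM against 0 to 364. That of 2 smooth muscle markers was 4193 to 7120 CPM against 28088 to 313499. Their part in the result was not tested.

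Brain, eye and spinal cord held little of the cluster, and it was eye that had more of it. miR-322-5p had 123 CPM in brain, 382 in eye and 110 in spinal cord, and miR-351-5p had 49.0, 105 and 46.9. Brain and spinal cord overlapped within counting error for both miRNAs, whereas eye lay apart from them. Of the 10 members, only miR-503-5p had brain, with 19.6 CPM, and spinal cord, with 10.3, apart. By edgeR all 10 members were higher in embryos than in the nervous organs, where 11.7% of names were called higher. The log2 fold changes ran from 3.58 ± 0.95 for miR-322-5p (SE, adjusted p = 0.013) to 6.51 ± 1.23 for miR-503-5p (SE, adjusted p = 0.0026), with a median of 4.74 against -0.04 over all names. Without brain or without spinal cord the calls on miR-322-5p, miR-503-3p and miR-351-3p were lost (adjusted p 0.052 to 0.074), and the other 7 held in all leave-outs.

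As a class the nervous organs were also lower than the 9 other organs, but single libraries overlapped. Eye had 382 CPM of miR-322-5p against 248 in stomach, and 98.0 of miR-503-5p against 59.0 in stomach and 39.6 in smooth muscle. For miR-351-3p and miR-542-3p no nervous organ lay below all 9, and for every other member only brain and spinal cord did. By edgeR 9 of 10 members were lower, where 12.6% of names were called lower, with log2 fold changes from -2.97 ± 0.85 for miR-322-5p (SE, adjusted p = 0.012) to -2.07 ± 0.74 for miR-351-5p (SE, adjusted p = 0.035). miR-351-3p had -2.62 ± 1.14 (SE, adjusted p = 0.078). The median of the 10 was -2.59, against -0.21 over all names. These calls rest on 2 libraries: without brain 0 of 10 passed, and without spinal cord 0 of 10 passed, although the log2 fold changes of the members stayed between -4.01 and -1.71 over all leave-outs. With total-count scaling 3 members passed, where 8.08% of names were called lower, and with no filter on low counts 1 did, where 2.57% of names were. Other tissue markers were also lower in the nervous organs. The summed level of 2 smooth muscle markers was 5729 to 20620 CPM there and 28088 to 313499 in the other organs, and that of 3 spleen markers was 1396 to 2600 against 3099 to 265492, with no marker at 0 in a nervous organ. Their part in the result was not tested.

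**Figure D2:**
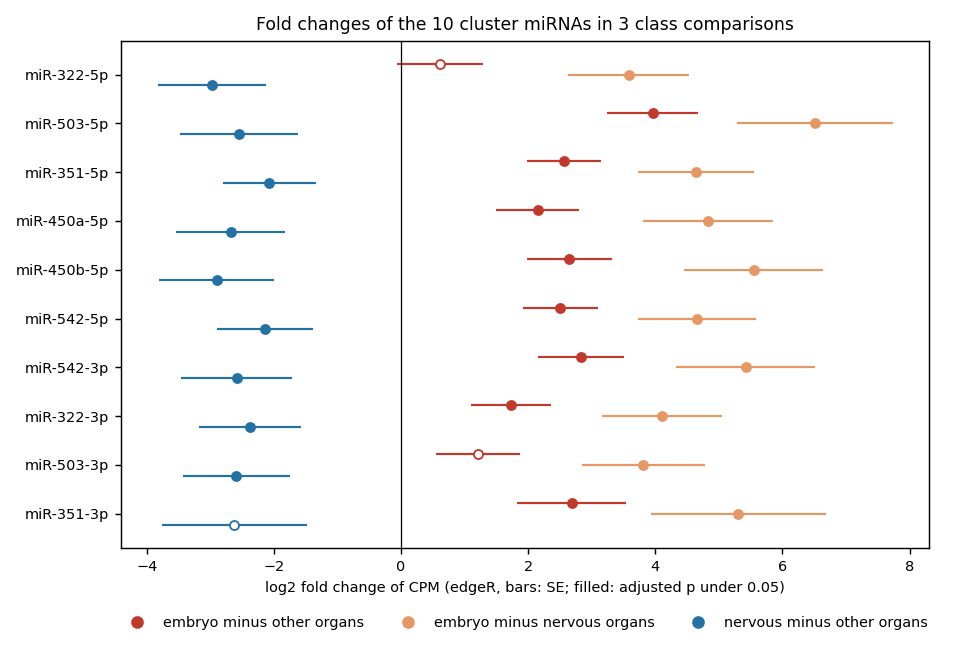
Log2 fold changes of the 10 cluster miRNAs between embryos and other organs, embryos and nervous organs, and nervous and other organs; points are edgeR estimates, bars are 1 standard error, and filled points have an adjusted p under 0.05. miR-322-5p and miR-503-3p are open in the comparison of embryos with other organs, where miR-503-5p lies farthest to the right.

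The make-up of the cluster, which no scaling factor touches, differed between embryos and organs. miR-503-5p made up 35.5% ± 3.2 of the reads of the 10 members in embryos (SD, n = 3), 8.92% ± 2.63 in the other organs (SD, n = 9) and 8.16% ± 4.2 in the nervous organs (SD, n = 3). miR-322-5p made up 23.0% ± 4.5 in embryos (SD, n = 3), 56.4% ± 7.0 in the other organs (SD, n = 9) and 47.3% ± 2.2 in the nervous organs (SD, n = 3). The embryo shares of miR-503-5p, 33.1% to 39.1%, lay above the highest organ share of 12.6%, in eye. The leading miRNA of the cluster was thus miR-503-5p in each embryo and miR-322-5p in each organ. Among the smaller shares, miR-542-3p had 4.14% ± 1.01 in embryos (SD, n = 3) and 2.16% ± 1.01 in the other organs (SD, n = 9), and miR-450b-5p had 1.06% ± 0.20 and 0.626% ± 0.201 in the same groups. miR-503-3p had the lower share in embryos, 0.714% ± 0.141 against 1.26% ± 0.43. That of miR-450a-5p, 12.8% ± 1.7 in embryos and 11.0% ± 2.5 in the other organs, differed by less than the spread between organs. The groups overlapped for each of these 4.

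Per read of miR-322-5p there were 1.22, 1.98 and 1.56 reads of miR-503-5p in the 11-, 15- and 17-day embryos. The 12 organs had 0.0814 in smooth muscle to 0.256 in eye, so that the ratio was above 1 only in the embryos among these 15 libraries. Heart had 0.105 and lung 0.223, although both held more miR-322-5p than any embryo on the TMM scale. The mean log2 ratio was 0.64 ± 0.35 in embryos (SD, n = 3) and -2.71 ± 0.55 in the other organs (SD, n = 9), a difference of 3.35, or 10.2-fold. The two-sided exact permutation p was 0.0091, the smallest that the 220 splits of these 12 libraries allow. Leaving out single libraries gave differences of 3.18 to 3.53. That its direction is higher in embryos follows from the choice of miR-322-5p as denominator. The ratio was singled out after its values were seen, 9 ratios to miR-322-5p were computed, and the p is not adjusted. The ratios of miR-351-5p, miR-351-3p, miR-542-3p, miR-542-5p, miR-450a-5p and miR-450b-5p reached the same permutation p. It therefore does not set miR-503-5p apart from them.

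Since miR-322-5p had the smallest fold change of the 10, every other member had to have a larger ratio to it in embryos, and the ratios restate the levels without a scaling factor. The fold of the ratio between embryos and other organs was 5.27 for miR-351-3p, 4.96 for miR-542-3p, 4.07 for miR-450b-5p, 3.57 for miR-351-5p, 3.36 for miR-542-5p and 2.92 for miR-450a-5p. For each of these 6, as for miR-503-5p, all 9 other organs lay below all embryos, where this held for 9.97% of the 692 other tested names. For miR-322-3p, the partner strand, the fold was 2.06 and 8 of 9 organs lay below, and for miR-503-3p it was 1.43 and 4 of 9 lay below. Both strands that differed least in relation to miR-322-5p are thus minor strands of the 2 hairpins nearest the start of the cluster.

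**Figure D3:**
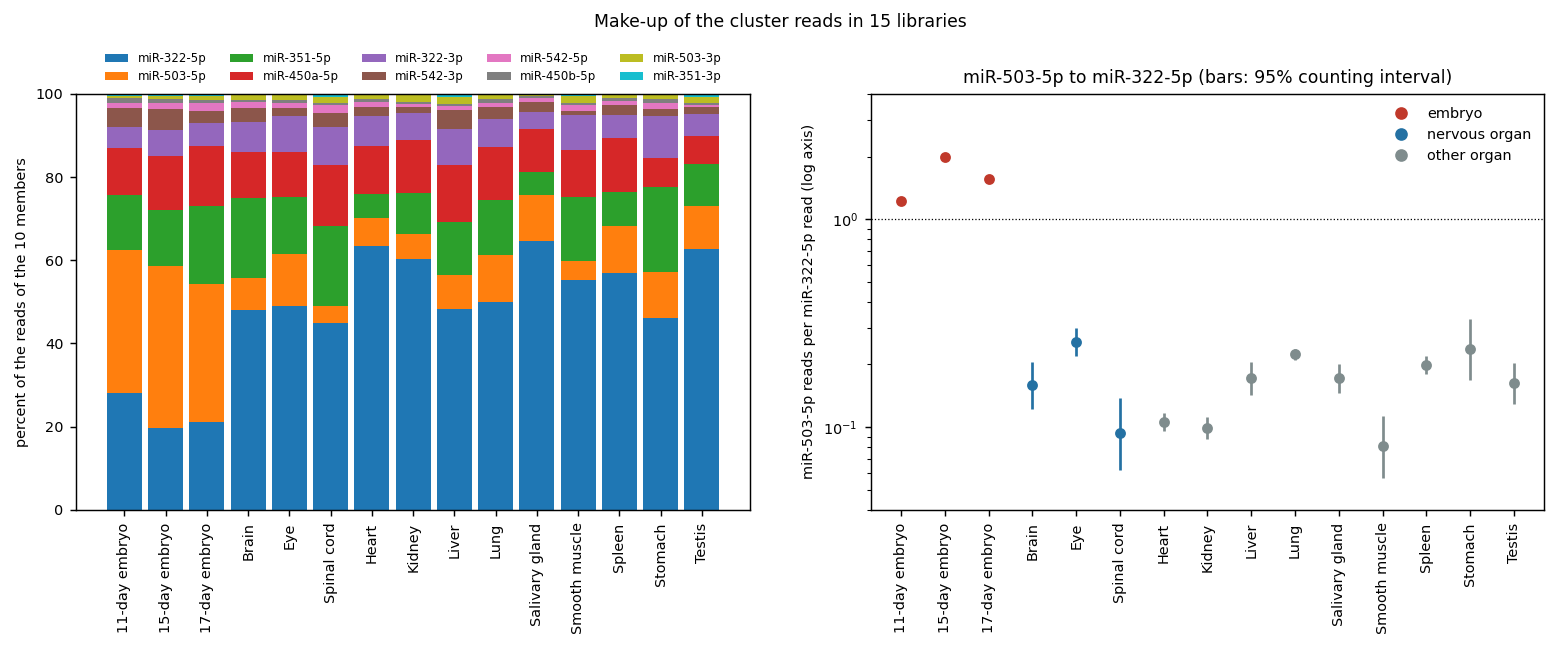
Left, shares of the 10 cluster miRNAs among their summed reads in each library, as stacked bars to 100%; right, reads of miR-503-5p per read of miR-322-5p on a log axis, with 95% counting intervals and a dotted line at 1. The embryo ratios are 1.22 to 1.98 and those of the 12 organs 0.0814 to 0.256.

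The arms of the hairpins were compared next. The 5p share is the 5p reads as a percent of the 5p and 3p reads of a hairpin, and it is not affected by scaling. The miR-503 hairpin was almost wholly 5p in embryos, with 98.4% in the 11-day, 98.2% in the 15-day and 97.5% in the 17-day embryo. The organs ranged from 72.2% in smooth muscle (95% exact interval 58.4 to 83.5, 54 reads) to 95.03% in salivary gland (90.8 to 97.7, 181 reads), so that no organ reached the embryos. Kidney had 78.7% (74.3 to 82.7, 385 reads), heart 85.4% and lung 92.7%. The difference in log2 odds between embryos and the other organs was 2.82 ± 0.41 (SE, edgeR, adjusted p = 1.5e-05) and passed in all 19 alternatives. The groups of the miR-503 shares did not overlap, which held for 16% of the 238 tested hairpins.

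The miR-322 hairpin moved the other way. Its 5p share was 84.6%, 75.6% and 79.1% in the 11-, 15- and 17-day embryos, against 82.1% in stomach to 94.1% in salivary gland. Of the 9 other organs 8 lay above all embryos, the exception being stomach with 42 reads of the 3p strand. Among the 8, liver with 84.8% (82.3 to 87.0) and smooth muscle with 86.8% (83.7 to 89.5) overlapped the 11-day embryo within counting error. How many of all hairpins had 8 organs on 1 side was not counted. The difference in log2 odds was -1.05 ± 0.31 (SE, edgeR, adjusted p = 0.015). The call failed in limma on log2 arm ratios (adjusted p = 0.072) and when either of the older embryos was left out, with an adjusted p of 0.14 for the 15-day and of 0.070 for the 17-day embryo. Both miR-322 and miR-503 are led by their 5p strand in all libraries, so in neither did the leading arm change. Of the 5 hairpins of the cluster with a test, these 2 were called, where 19.7% of the 238 hairpins were.

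The miR-351 hairpin was 96.5% to 96.9% 5p in embryos and 93.7% to 100% in the other organs, where the values of 100% in salivary gland and stomach come from 84 and 85 reads and allow down to 95.7% and 95.8%. Its difference did not pass (log2 odds -0.30 ± 0.36, SE, edgeR, adjusted p = 0.56). The miR-542 hairpin was 3p-led in embryos, with 5p shares of 20.7%, 22.3% and 36.2% in order of age. The interval of the 17-day embryo (34.5 to 38.0) lay apart from that of the 15-day embryo (20.8 to 23.8). Smooth muscle had 57.9% from 19 reads (33.5 to 79.7), which does not decide the leading arm at this depth, and the class difference did not pass (log2 odds -0.42 ± 0.35, SE, edgeR, adjusted p = 0.42).

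The miR-450b hairpin used both arms in like measure, with 5p shares of 48.4%, 47.4% and 44.3% in the embryos. Heart had 34.2% (25.8 to 43.4, 120 reads), lung 46.1% (39.5 to 52.8, 228 reads) and spleen 57.4% (43.2 to 70.8, 54 reads), and all other organs had at most 52 reads. The log2 odds differed by 0.39 ± 0.33 (SE, edgeR, adjusted p = 0.42), and the 3p counts of this hairpin are uncertain as noted for its sequence. Between nervous and other organs none of the 5 hairpins passed by edgeR (adjusted p 0.36 to 0.91), where 5.88% of hairpins were called. The 5p share of miR-503 in spinal cord, 74.4%, rests on 39 reads, and small shifts would not be detectable at such depths.

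**Figure D4:**
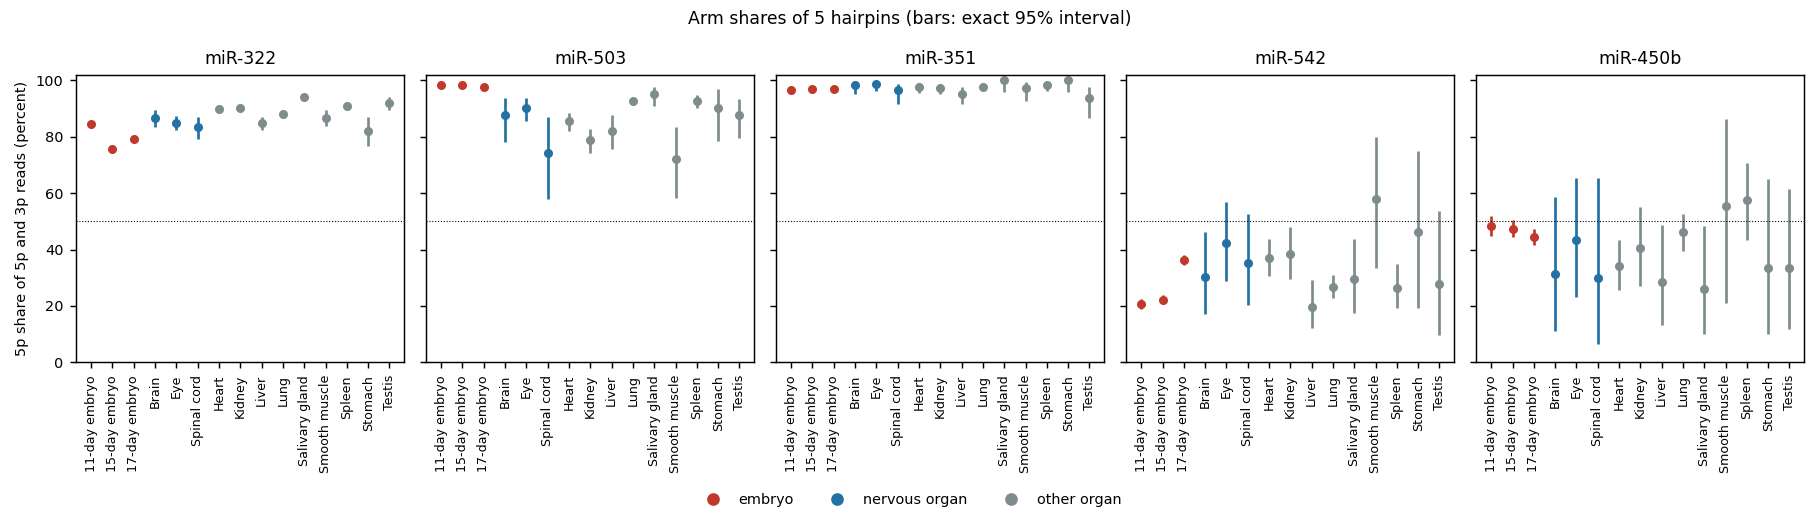
5p shares of 5 cluster hairpins in each of the 15 libraries, in percent of the 5p and 3p reads, with exact 95% intervals and a dotted line at 50%. The miR-503 shares of the embryos lie above those of all organs, most miR-322 shares of the organs lie above those of the embryos, and the miR-542 and miR-450b intervals in organs are wide.

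The weight of miR-322-5p and of miR-351-5p among miRNAs with the same seed was read as a share of summed reads, which again needs no scaling. miR-322-5p made up 19.1%, 18.8% and 22.3% of the reads with its seed in the 11-, 15- and 17-day embryos. In the other organs it made up 1.26% in stomach to 8.45% in heart, with kidney at 7.06%, testis at 5.78% and lung at 5.48%, and in the nervous organs 0.969% to 2.49%. The embryo shares thus lay above those of all 12 organs, although the level of miR-322-5p itself did not. The summed level of the 6 miRNAs was 12283 CPM ± 1159 in embryos (SD, n = 3) and 39575 CPM ± 13268 in the other organs (SD, n = 9). In the nervous organs it was 12697 CPM ± 2666 (SD, n = 3), close to the embryos on this scale. Unlike the shares, these summed levels depend on the TMM factors. As a part of all reads, the sum in each embryo lay above that in each nervous organ. The nearest were the 17-day embryo, with 61424 of 2625149 reads, and brain, with 45196 of 3161463. On that scale the embryos also lay within the range of the 9 other organs.

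The other 5 miRNAs of this seed had lower levels in embryos than in the 9 other organs, but not all did against the nervous organs. By edgeR all 5 were lower than in the 9 other organs, where 17.2% of names were called lower. miR-195a-5p had 83.9 CPM ± 17.1 in embryos (SD, n = 3) and 2050 ± 1068 in the other organs (SD, n = 9), and its log2 fold change was -4.61 (adjusted p = 8.9e-05), and miR-497a-5p, made from the same transcript, had -3.67 (adjusted p = 9.9e-05). miR-16-5p, the most abundant of them, had -1.80 (adjusted p = 0.0083), miR-15a-5p -1.80 (adjusted p = 0.010) and miR-15b-5p -1.88 (adjusted p = 0.019). The last 3 calls did not hold with total-count scaling (adjusted p 0.46 to 0.53), with no filter on low counts (0.068 to 0.091) or against all 12 organs (0.073 to 0.20), whereas those on miR-195a-5p and miR-497a-5p did. The call on miR-15b-5p also needed both the 15-day and the 17-day embryo (adjusted p = 0.065 without the former and 0.065 without the latter). Against the nervous organs edgeR called 2 of the 5 lower in embryos, miR-195a-5p (-3.50, adjusted p = 0.0035) and miR-497a-5p (-2.43, adjusted p = 0.010). There 99 of the 693 tested names were called lower. miR-16-5p (-0.41), miR-15a-5p (0.23) and miR-15b-5p (0.81) were not called.

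For the miR-125 seed the embryo shares of miR-351-5p were 8.34%, 9.97% and 13.3% in order of age. The other organs ranged from 0.218% in stomach to 4.11% in lung, and the nervous organs from 0.104% to 0.237%. Here too all embryos lay above all organs. miR-125b-5p had 11199 CPM ± 925 in embryos (SD, n = 3), 14386 ± 9695 in the other organs (SD, n = 9) and 32839 ± 3219 in the nervous organs (SD, n = 3). Between embryos and other organs miR-125a-5p had a log2 fold change of -1.30 (edgeR, adjusted p = 0.079) and miR-125b-5p -0.36 (adjusted p = 0.61), and both signs turned with total-count scaling (0.094 and 1.03). In embryos miR-125a-5p was lower than in nervous organs (-2.003, edgeR, adjusted p = 0.039), a call lost with total-count scaling (adjusted p = 0.30), with no filter on low counts (0.098) and when brain, eye, spinal cord or any embryo was left out (0.052 to 0.11).

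**Figure D5:**
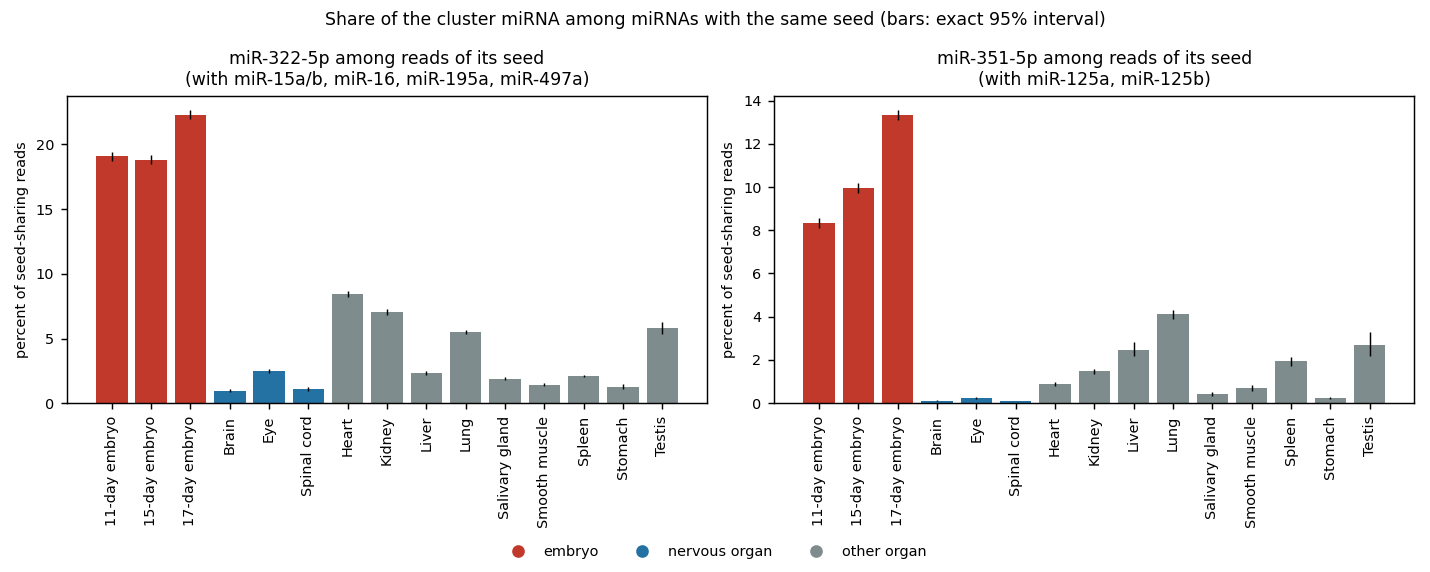
Left, miR-322-5p in percent of the reads of the 6 miRNAs with its seed; right, miR-351-5p in percent of the reads of the 3 miRNAs with its seed, for each of the 15 libraries with exact 95% intervals. The embryo bars stand at 18.8% to 22.3% on the left and at 8.34% to 13.3% on the right, above all organ bars.

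Within the embryos, each stage is 1 library and no difference between stages could be tested. The ratio of the 17-day to the 11-day level was 1.91 for miR-503-3p, 1.86 for miR-542-5p, 1.79 for miR-351-5p, 1.66 for miR-450a-5p, 1.58 for miR-351-3p, 1.40 for miR-322-3p and 1.24 for miR-503-5p. It was 0.97 for miR-322-5p, 0.87 for miR-450b-5p and 0.85 for miR-542-3p. The 2 strands of the Mir542 hairpin thus lay on opposite sides of 1, as did those of Mir322, the latter by little. miR-503-5p, miR-322-3p, miR-542-3p and miR-450b-5p had their highest level in the 15-day embryo.

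Among the 12 organs the members varied together. Over the 45 pairs of members, the Pearson correlation of log2 CPM over the 12 organ libraries was 0.63 to 0.98 with a median of 0.92, and the Spearman correlation 0.68 to 0.98 with a median of 0.90. Each pair shares its libraries, depth and scaling factors, and strands of 1 hairpin share a precursor. Names outside the cluster also varied with miR-322-5p over the 12 organs, with a Pearson correlation of 0.83 for miR-452-3p and 0.75 for miR-20a-5p. Among members it was 0.72 for miR-351-3p and 0.89 to 0.97 for the others. How many of all names vary as closely was not counted. The profile most like that of miR-322-5p over all 15 libraries was sought by the root mean square difference of log2 CPM centred on its mean. Within the cluster miR-503-3p was nearest (0.55), then miR-322-3p (0.60) and miR-450a-5p (0.70), whereas miR-503-5p ranked 44 (1.43) and miR-351-3p 57 (1.497). miR-351-3p had 0 to 38 reads in the organs, so counting error can weigh on its rank and on its correlation of 0.72. Outside the cluster the nearest were miR-452-3p (0.83, at a mean of 3.29 CPM in embryos), miR-20a-3p (1.04), miR-20a-5p (1.07), miR-19b-3p (1.09) and miR-17-5p (1.11). Both miR-20a strands and miR-17-5p come from the miR-17-92 cluster.

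The 3 strands of the cluster outside the 10 names had lower levels than most members. miR-450b-3p had a mean of 129 CPM in embryos and 27.9 in the other organs, with a log2 fold change of 2.21 (edgeR, adjusted p = 0.0099). miR-450a-2-3p had 35.9 and 7.17 CPM (2.26, adjusted p = 0.034), and miR-450a-1-3p had 12.1 and 4.54 CPM (1.56, adjusted p = 0.13). Set against the summed 3p reads of both its hairpins, miR-450a-5p made up 96.7% ± 0.7 in embryos (SD, n = 3) and 96.3% ± 2.7 in the other organs (SD, n = 9), a difference smaller than the spread between organs.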

How the data were processed

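Per the labels' protocols, small RNA was size-selected from total RNA, ligated to adapters with randomized ends to lower ligation bias (AQ-seq) and sequenced. The authors deposited 1 table per library of read counts per mature miRNA name, not normalized. The submitters' processing notes name build mm10 and the tools BWA, bedtools, cutadapt and bcl2fastq (1.8.4). The treatment of reads matching several loci is not given in the sources used here. A name missing from a library was taken as 0.

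Classes came from the tissue labels. For abundance, glmQLFTest of edgeR 4.0.16 (R 4.3.3) was run with TMM scaling. filterByExpr kept 693 of 1558 names, which removed 13.1% of testis reads and at most 0.21% of any other library. For arm usage the 5p and 3p counts of a hairpin were fitted with library terms and the interaction of arm and class. Of 615 hairpins, 238 reached 20 reads in 8 or more libraries. All 15 libraries entered each fit. Benjamini-Hochberg adjustment ran over all names or hairpins, with a threshold of 0.05. Ratios to miR-322-5p had 0.5 reads added to both counts before log2. Intervals are exact at 95% and cover counting error only. Alternatives were DESeq2 1.42.0, limma 3.58.1, other scalings and filters, and leaving out each library. Scripts were tested on simulated data. The members, seed lists and tests were chosen with earlier results of these data known. The text names all members, other strands of their hairpins, miRNAs with their seeds, and the 5 outside names most like miR-322-5p.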

Additional observations from a re-analysis of the deposited data

Results flagged for a closer look

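In lung miR-351-5p had 767 CPM, far from the other 8 organs of its class, of which the next highest was testis with 390 CPM, and the class median was 251 CPM. The gap to testis was 0.528 of the class range in CPM, where 0.493 is the limit for 9 libraries. That limit assumes normally spread values, and CPM was not put on a log scale here, so the flag is weak. The lung value rests on 1598 reads. Of 17 groups of values checked in this way it was the only one past the limit, and chance passes about 1 in 20 where values are normally spread.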

How the results depend on the processing

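No paired analysis was possible because the replicate numbers are accession order only and no label ties a library of 1 class to a library of another. The members called lower in nervous than in other organs numbered 9 in the fit reported, 3 with total-count scaling and 1 with no filter on low counts. All names called between embryos and nervous organs numbered 180, against 119 with no filter and 272 with only the compared classes. Between embryos and other organs they numbered 306, against 157 when the embryos were set against all 12 organs. For arm usage limma called 18 hairpins against 47. Leaving out single libraries gave 255 to 343 names and 5 to 8 members for embryos against other organs, 95 to 200 names and 7 to 10 members for embryos against nervous organs, and 186 to 303 names and 0 to 10 members for nervous against other organs. It gave 26 to 49 and 4 to 28 hairpins for arm usage in embryos and in nervous organs against other organs. The sign turned for miR-125a-5p (0.094) and miR-125b-5p (1.03) between embryos and other organs and for miR-16-5p (0.57) between embryos and nervous organs, each with total-count scaling. It also turned for the nervous arm differences of miR-351 in limma (-0.054) and in leave-outs (-0.0055 to 0.76, the lowest without eye), and of miR-503 in leave-outs (-0.62 to 0.21, the highest without spinal cord). None of these was called. Without TMM factors the ratio of embryo to other organ mean CPM went from 1.53 to 3.86 for miR-322-5p, 3.32 to 8.77 for miR-322-3p, 15.5 to 38.2 for miR-503-5p, 2.31 to 5.63 for miR-503-3p, 5.91 to 14.8 for miR-351-5p, 6.06 to 13.2 for miR-351-3p, 7.15 to 19.8 for miR-542-3p, 5.73 to 15.99 for miR-542-5p, 4.44 to 12.02 for miR-450a-5p and 6.30 to 16.6 for miR-450b-5p. Fewer libraries were fitted in the leave-outs, and for the other settings the cause was not tested. Depth limits the testis values and the arm shares of miR-542 and miR-450b in most organs.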
